A study of Mus musculus with 22 samples.

Results

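Layer V cortical neurons, large projection neurons, were compared with cerebellar granule cells, the smallest neurons of the brain, gene by gene in both directions. The comparison used the 3 libraries of each cell type that the labels place in batch 1, which is 6 of the 22 samples in the series. Every library held mRNA bound to tagged ribosomes. The mice were 6 weeks old and carried the conditional RiboTag allele of the ribosomal protein gene Rpl22 as Rpl22 fl/+, from the B6N.129-Rpl22tm1.1Psam/J strain, together with 1 copy of a Cre transgene (Tg/+). Cre switches on a haemagglutinin (HA) tag on the Rpl22 protein, and tagged ribosomes were then pulled down from whole tissue lysate with an antibody to HA. For layer V neurons the driver was Rbp4-Cre (the line Tg(Rbp4-cre)KL100Gsat/Mmucd, B6.FVB(Cg)) and the tissue was cortex, and for granule cells the driver was Gabra6-Cre (B6.Tg(Gabra6-Cre)B1Lfr) and the tissue was cerebellum. Both groups carried the tagged allele and a Cre, so neither was an untagged control. The driver set which cells were tagged, and Rbp4-Cre was also the driver of the dentate gyrus granule cell libraries of the same series. The layer V libraries came from 2 females and 1 male and the granule cell libraries from 1 female and 2 males. Driver, brain region and cell type changed together here and cannot be told apart. In bulk libraries fewer cells of a type and less RNA per cell cannot be told apart either, and each value is a share of its library and not an amount per cell.

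Pyramidal neurons of layer V send the long axons of the cortex to the brainstem, the spinal cord, the striatum and the other hemisphere, and they carry a thick apical dendrite covered in spines. Their identity depends on transcription factors such as Fezf2 and Bcl11b (Ctip2). Granule cells of the cerebellum have a small soma and a few short dendrites, each ending on a mossy fibre, and a thin unmyelinated axon that forms parallel fibre synapses on Purkinje cells. They are known for the GABA-A receptor α6 subunit (Gabra6), the NMDA receptor subunit Grin2c and the synaptic organisers Cbln1 and Cbln3. Both cell types are glutamatergic.

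The gene with the largest fitted fold on each side is shown first, by the 250 bases before a start listed in RefSeq (GRCm38), written from 5′ to 3′ on the gene's own strand with CG pairs in capitals. Fezf2 lies on the minus strand at chr14:12342094-12348189 and its window is chr14:12345866-12346115. This window lies before the listed RefSeq start but inside the GENCODE span of the gene, which holds a transcript that starts farther upstream. Gabra6 also lies on the minus strand, at chr11:42306437-42321072, with its window before the whole gene at chr11:42321073-42321322.
Fezf2: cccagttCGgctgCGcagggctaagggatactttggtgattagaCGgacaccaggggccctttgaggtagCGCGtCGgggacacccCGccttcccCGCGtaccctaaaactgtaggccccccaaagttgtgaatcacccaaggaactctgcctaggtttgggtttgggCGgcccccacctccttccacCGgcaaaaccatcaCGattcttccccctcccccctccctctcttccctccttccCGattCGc
Gabra6: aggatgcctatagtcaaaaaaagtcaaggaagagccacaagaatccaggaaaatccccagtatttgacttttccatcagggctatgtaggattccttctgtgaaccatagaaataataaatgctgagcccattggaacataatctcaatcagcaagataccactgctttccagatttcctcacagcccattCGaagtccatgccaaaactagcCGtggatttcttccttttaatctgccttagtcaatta
The Fezf2 window held 14 CG pairs and the Gabra6 window 2. Of 17182 genes tested, 12245 had such a window, and the median was 15 CG pairs over all of them, 11 over the genes higher in layer V neurons and 16 over those higher in granule cells, by the calls defined below. The letters TATAAA, searched on both strands, were in neither window. They were in 6.86% of all windows, in 8.98% of those of genes higher in layer V neurons and in 5.77% of those of genes higher in granule cells.

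Defining genes matched the labels with 1 exception. Bcl11b stood at 152, 146 and 147 CPM (estimated counts scaled to the size of the library) in layer V neurons and at 0.393, 0.561 and 0.351 in granule cells. Gabra6 stood at 0.105, 0.319 and 0.141 CPM in layer V neurons and at 3098, 3155 and 3212 in granule cells. All 8 granule cell markers were higher in granule cells and 7 of 8 layer V markers were higher in layer V neurons. The exception was Etv1 (Er81), a transcription factor used as a layer V marker in cortex, with 210.5, 228 and 239 CPM in layer V neurons and 1545, 1626 and 1644 in granule cells. Rbp4, whose regulatory sequence drives the layer V Cre, stood at 20.1, 21.3 and 20.97 CPM in layer V neurons and at 0, 0.0432 and 0 in granule cells. Rpl22, the tagged gene, stood at 49.1, 51.3 and 50.2 CPM in layer V neurons and at 29.6, 28.8 and 30.6 in granule cells, a log2 fold of 0.76 ± 0.04 (SE). The libraries held between 48481047 and 66185898 estimated counts, and no transcript took more than 1.124% of a library. Log2 values correlated at 0.9973 to 0.9982 between libraries of a cell type and at 0.8362 to 0.8424 between cell types, across genes.

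Markers of other cells were present in both groups, at levels that varied widely, and were higher in layer V libraries for most cell classes. Of 15 inhibitory neuron markers, 13 were higher in layer V neurons and 2 (Slc6a5 and Tfap2b) in granule cells, with a summed level of 192 to 214 CPM in layer V libraries and 24.6 to 27.1 in granule cell libraries. Dlx2 and Dlx5 were at 0 in all granule cell libraries. The GABA-synthesising enzyme gene Gad1 reached 0.733% in layer V libraries of its TPM (a level per transcript length) in the interneuron libraries of the series, which were made from pooled hippocampi with Dlx6a-Cre. Sst was not low in layer V libraries, at 256 TPM, against 0.265 TPM in granule cell libraries. Of 10 astrocyte markers, 4 were higher in layer V neurons and 1 (Aqp4) in granule cells, summing to 531 to 549 CPM against 104.5 to 107.9. The largest of these as a share of the astrocyte libraries was S100b at 12.1% (109 TPM in layer V libraries), while Gfap was at 0.448%. Microglia markers (9 of 10 higher in layer V neurons, 21.2 to 23.8 CPM against 7.42 to 8.81), vascular markers (8 of 9, 29.3 to 33.1 against 5.81 to 12.9) and oligodendrocyte markers (7 of 10, 351 to 378.5 against 181 to 203) shared that direction. Of 6 Purkinje cell markers, 4 were higher in granule cells and Calb1 in layer V neurons, with 172.7 to 173.8 CPM against 316 to 333. Of 7 markers of other cortical layers, Rorb, Ntsr1 and Cplx3 were higher in layer V neurons and Syt6 and Nxph4 in granule cells. Eomes, which marks unipolar brush cells in the cerebellum, stood at 65.2, 66.6 and 54.7 CPM in granule cells and 0.0351, 0.0579 and 1.27 in layer V neurons. The part of these cells in the gene differences below was not tested, except where a level is set beside that of another library.

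The 2 neuron types differed widely. A gene was called when edgeR's quasi-likelihood test gave a Benjamini-Hochberg adjusted p of at most 0.05 and the fitted fold was at least 2. By this rule 5011 of 17182 genes (29.2%) were higher in layer V neurons and 3490 (20.3%) in granule cells, and these percentages are the background against which each gene group below is set. The remaining 8681 were not called. The 3 libraries on one side lay entirely above those on the other for 4987 and 3475 of the called genes. Such separation follows largely from the call itself and is not further support for it. The median log2 fold over all tested genes was 0.08. Large differences were mostly in the direction of layer V neurons. At least 4-fold differences counted 3293 genes higher in layer V neurons and 1245 in granule cells, and at least 64-fold differences counted 950 and 126. Of the called genes, 3938 and 2943 had a protein-coding transcript. A level of at least 1 TPM was reached by 13496 genes in layer V neurons and by 12351 in granule cells, while 8285 and 8732 genes reached 10 TPM. With a test on log2(TPM + 1) in limma the calls numbered 2756 higher in layer V neurons and 3165 in granule cells, so that the granule cell count was then the larger.

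**Figure D1:**
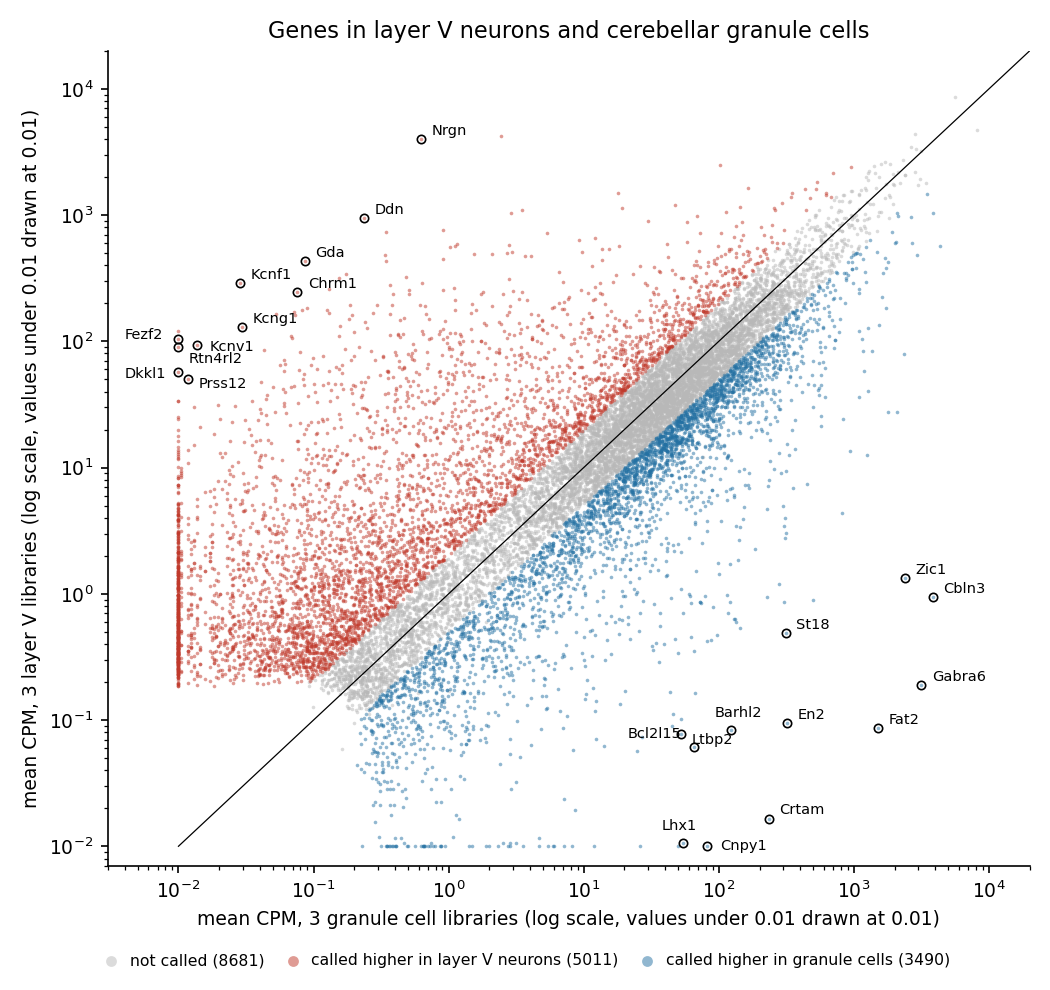
Each point is 1 of the 17182 tested genes, with its mean CPM over the 3 granule cell libraries on the horizontal log axis and over the 3 layer V libraries on the vertical log axis. The 5011 genes called higher in layer V neurons are red, the 3490 called higher in granule cells are blue, and circles mark 23 of the 24 protein-coding genes described below as having the largest fold (12 on each side, at least 50 CPM in the higher group). Nrgn and Ddn stand out among the layer V genes by their level, and Gabra6, Cbln3, Zic1 and Fat2 among the granule cell genes.

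The 12 genes with the largest fold toward layer V neurons included the transcription factor gene Fezf2, 3 silent potassium channel subunits, a muscarinic receptor and 3 genes of dendrites or spines. Fezf2, which specifies subcortical projection neurons, stood at 104, 107 and 104 CPM in layer V neurons and at 0 in all 3 granule cell libraries, a difference of at least 5641-fold (floor of 3 counts over the group). Nrgn encodes neurogranin, which binds calmodulin in dendrites, and was the most abundant of the set at 3974, 4253 and 3823 CPM against 0.708, 0.410 and 0.760. Ddn encodes dendrin, a dendritic and postsynaptic protein, and stood at 946, 977 and 927 CPM against 0.236, 0.281 and 0.195. Gda encodes cypin, the guanine deaminase that shapes dendrite branching, with 424, 423 and 442 CPM against 0.142, 0 and 0.117. These genes were chosen for a large fold without overlap of libraries, so the gap between the groups follows from the choice. Chrm1, the M1 muscarinic receptor, had 247, 241 and 247 CPM against 0.0629, 0.0863 and 0.0779. Rtn4rl2 (a Nogo receptor family member), Prss12 (the serine protease neurotrypsin), Dkkl1, Kcnf1, Kcnv1 and Kcng1 were also in the set, with means from 50.0 CPM (Prss12) to 289 (Kcnf1) in layer V neurons and of at most 0.0294 (Kcng1) in granule cells. Most of these genes were also present in dentate gyrus granule cells, the other Rbp4-Cre libraries of the series. Nrgn reached 3521 ± 407 TPM there (SD, n = 3) against 4982 ± 197 in layer V neurons, and Ddn reached 1634 ± 103 against 405 ± 1.78. Dkkl1 was lower in dentate gyrus, at 1.89 ± 1.65 TPM against 111 ± 4.44 in layer V neurons.

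The 12 genes with the largest fold toward granule cells were led by Gabra6 and held 5 hindbrain or cerebellar transcription factors. Gabra6 had a log2 fold of -13.95 ± 0.11 with an adjusted p of 6.7e-15 in edgeR. Fat2, an atypical cadherin of granule cells (chr11:55250609-55336564), stood at 1464, 1471 and 1582 CPM against 0.0351, 0.188 and 0.0352 in layer V neurons, a log2 fold of -13.95. Cbln3, a cerebellin that is secreted together with Cbln1, stood at 3786, 3902 and 3835 CPM against 1.05, 1.03 and 0.740. Selection for a large fold without overlap fixed the separation of the libraries in advance. Its size was more than 3 orders of magnitude for each of these genes. En2, the midbrain and hindbrain homeobox gene, stood at 328, 332 and 306 CPM against 0.105, 0.0724 and 0.106, and Zic1, a zinc finger factor of cerebellar granule neurons, at 2389, 2412 and 2343 against 1.05, 1.88 and 1.06. Crtam, an immunoglobulin superfamily adhesion molecule, stood at 226, 233.9 and 239.6 CPM and held 3 counts over the layer V libraries, a ratio of 14169 (95% interval 4848 to 68712). Lhx1, Barhl2 and St18 are the other transcription factors, and Cnpy1, Bcl2l15 and Ltbp2 complete the set. St18 was also found in dentate gyrus granule cells, at 50.9 ± 1.75 TPM against 165 ± 9.82 in cerebellar granule cells and 0.257 ± 0.0742 in layer V neurons. Batch 2 held 1 library of each of these 2 cell types, labelled layer V replicate 1 and granule cell replicate 3, which are replicates already in the fit. The pair gave the same direction for all 24 genes, and by these labels it is not independent of batch 1. Its log2 values, 7.70 for Fezf2 and -12.51 for Gabra6, were computed outside the fit. Against a near-zero group such a value depends on how levels near 0 are handled. The size of these values therefore cannot be compared with the fitted folds, and only their direction is used.

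**Figure D2:**
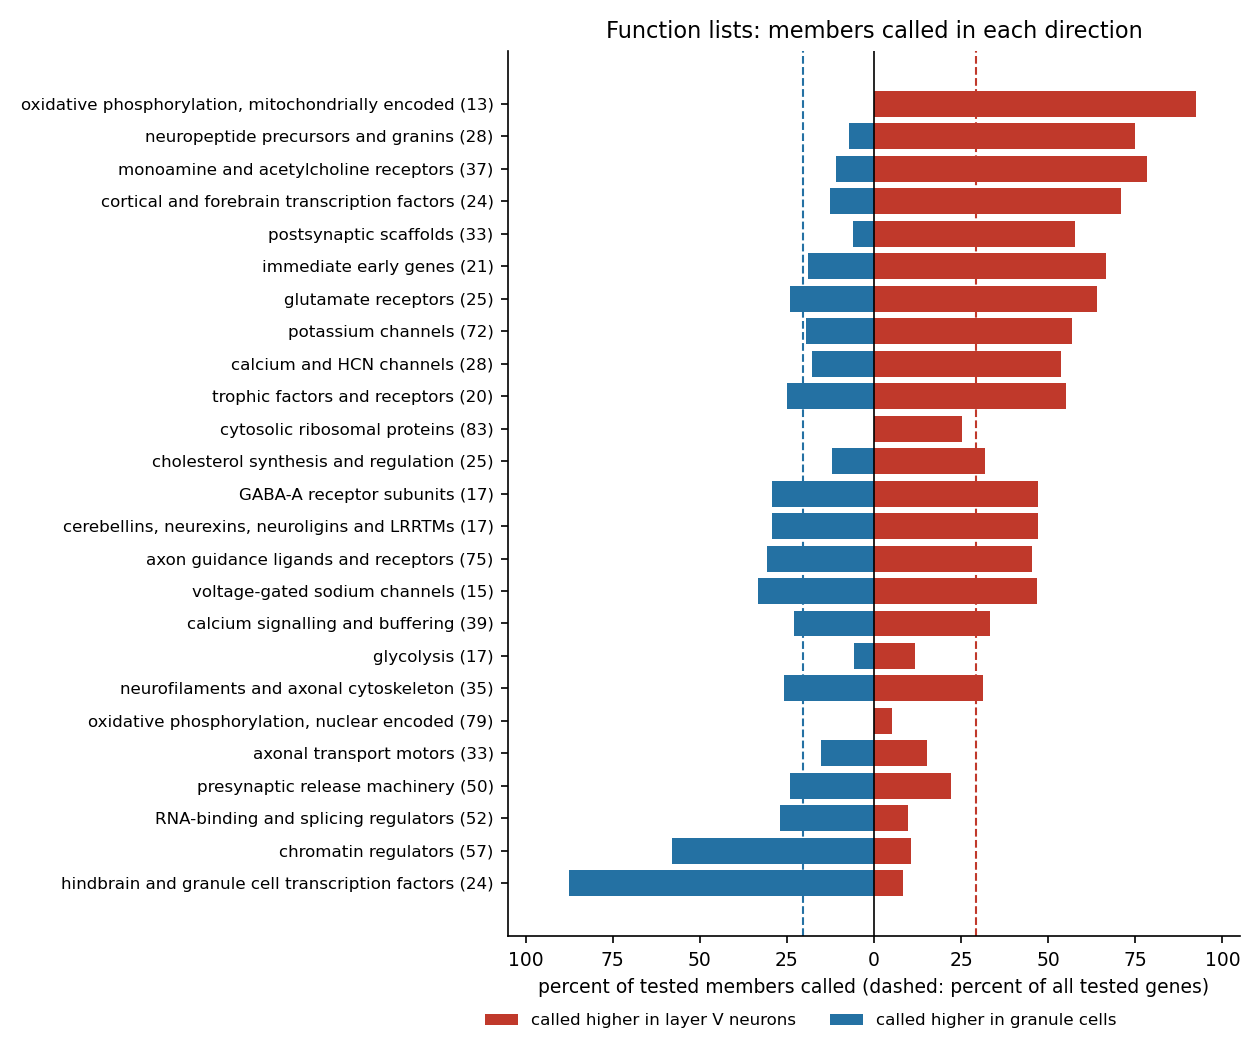
Bars give the percentage of tested members of each of 25 function lists called higher in layer V neurons (red, to the right) and in granule cells (blue, to the left), with the number tested in parentheses and dashed lines at 29.2% and 20.3%, the percentages over all tested genes. Neuropeptide, neuromodulator receptor, forebrain factor and postsynaptic lists lie well past the red line, and hindbrain factors and chromatin regulators well past the blue line.

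Transcription factors of the forebrain and of the hindbrain differed in opposite directions. Of 24 cortical and forebrain factors tested, 17 (70.8%, against 29.2%) were higher in layer V neurons and 3 (12.5%, against 20.3%) in granule cells. Their median log2 fold was 4.95. Of 24 hindbrain and granule cell factors tested, 21 (87.5%, against 20.3%) were higher in granule cells. In layer V neurons 2 (8.33%, against 29.2%) were higher, and the median was -7.44. Emx1, a dorsal forebrain homeobox gene, stood at 32.8, 35.3 and 33.0 CPM in layer V neurons and held 1 count over the granule cell libraries. Lhx2, a LIM homeobox gene of the cortex, stood at 51.7, 43.6 and 48.3 CPM against 0.0629, 0.0216 and 0.0390. Per length, Fezf2 and Bcl11b reached 85.5 ± 0.979 and 34.3 ± 1.35 TPM in layer V neurons (SD, n = 3). Etv1, Cux1 and Bcl6 were the cortical factors that were higher in granule cells. Cux1, known for its use as an upper layer marker in cortex, stood at 43.0, 41.2 and 38.9 CPM in layer V neurons and 247, 258 and 253 in granule cells. Bcl6 stood at 60.1, 60.7 and 64.7 and 247, 223 and 187.

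Zic genes were higher in granule cells, where Zic1 reached 1004 ± 27.9 TPM, Zic2 604 ± 44.96, Zic5 54.1 ± 1.45 and Zic4 49.9 ± 1.71. Barhl1, a homeobox gene of the granule lineage, stood at 51.8, 49.6 and 46.9 CPM and held 1 count over the layer V libraries, and En1 at 11.9, 12.2 and 11.6 CPM, also with 1 count. All 3 nuclear factor I genes in the list were higher in granule cells, with log2 folds of -4.13 for Nfia, -1.30 for Nfib and -1.13 for Nfix. The call for Nfix was lost with upper-quartile scaling. Meis1 and Meis2, homeobox genes of the same family, went in opposite directions. Meis1 stood at 64.9 ± 1.36 TPM in granule cells and 0.352 ± 0.123 in layer V neurons, and Meis2 at 0.227 ± 0.149 and 56.3 ± 1.20. Insm1 was the other list member that was higher in layer V neurons, at 6.98, 7.40 and 5.89 CPM against 0.708, 0.432 and 0.351. Atoh1 had no counts in any of the 6 libraries and was not tested, as was the weakly counted Lmx1a.

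GABA-A receptor genes differed in which subunits were used. Of 17 subunits tested, 8 (47.1%, against 29.2% of all genes) were higher in layer V neurons and 5 (29.4%, against 20.3%) in granule cells. The α subunits summed to 421 ± 18.7 TPM in layer V neurons and 4296 ± 28.3 in granule cells. In granule cells Gabra6 made up 90.7% ± 0.131 of this sum. In layer V neurons the sum was spread over several subunits, among them Gabra3 (17.6% ± 0.743), Gabra2 (15.4% ± 0.252), Gabra5 (13.3% ± 0.0787) and Gabra4 (11.1% ± 0.366). Gabra2 to Gabra5 were all higher in layer V neurons, from a log2 fold of 5.12 for Gabra4 to 8.58 for Gabra5. Among β subunits, Gabrb2 was the largest in granule cells at 64.1% ± 0.760. The δ subunit marks extrasynaptic receptors that carry tonic inhibition. Gabrd held 68.1% ± 1.47 of the γ and δ sum in granule cells and 26.1% ± 0.249 in layer V neurons. Gabrd stood at 348, 342 and 326 CPM in granule cells and 52.4, 52.8 and 50.1 in layer V neurons, a log2 fold of -2.71 ± 0.04. With a stricter filter of at least 1 CPM in every library of a group, 3 subunits in place of 5 were called higher in granule cells, since weakly counted ρ subunits were left out.

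Ionotropic glutamate receptors also differed by subunit. Of 25 glutamate receptor genes tested, 16 (64%, against 29.2%) were higher in layer V neurons and 6 (24%, against 20.3%) in granule cells. The median log2 fold was 2.05. For the AMPA receptor, Gria4 made up 72.4% ± 0.324 of the subunit sum in granule cells and 9.97% ± 0.636 in layer V neurons. In layer V neurons Gria2, the subunit that limits calcium entry, made up 48.2% ± 0.216, with Gria3 at 21.03% ± 0.404 and Gria1 at 20.8% ± 0.764. The obligatory NMDA subunit Grin1 was not called, at 653, 614 and 631 CPM and 577, 575 and 553. The GluN2 subunits, which set the kinetics of the NMDA receptor, were exchanged almost completely. Grin2b was at 504, 431 and 529 CPM in layer V neurons and 2.19, 1.86 and 2.28 in granule cells, and Grin2c was at 3.25, 3.58 and 3.52 and 313, 304 and 286. As shares of the GluN2 sum, Grin2b went from 72.8% ± 2.05 in layer V neurons to 0.175% ± 0.0437 in granule cells and Grin2c from 1.13% ± 0.0305 to 81.6% ± 4.07. Grin2a was not called, at a log2 fold of 0.28 ± 0.13. The kainate receptor sum was led by Grik5 in layer V neurons (71.3% ± 0.964) and by Grik2 in granule cells (67.9% ± 2.61).

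Metabotropic glutamate receptors summed to 174 ± 3.43 TPM in layer V neurons and 562 ± 21.4 in granule cells. Grm4, the presynaptic receptor of parallel fibres, made up 87.0% ± 1.31 of the sum in granule cells, with 1270.4, 1276 and 1256 CPM against 40.6, 42.0 and 38.2 in layer V neurons. Grm2, Grm3, Grm5, Grm7 and Grm8 were all higher in layer V neurons, from a log2 fold of 5.83 for Grm5 to 8.06 for Grm2. Grid1, the δ1 receptor, stood at 38.2 ± 1.37 TPM in layer V neurons and 0.271 ± 0.0957 in granule cells.

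**Figure D3:**
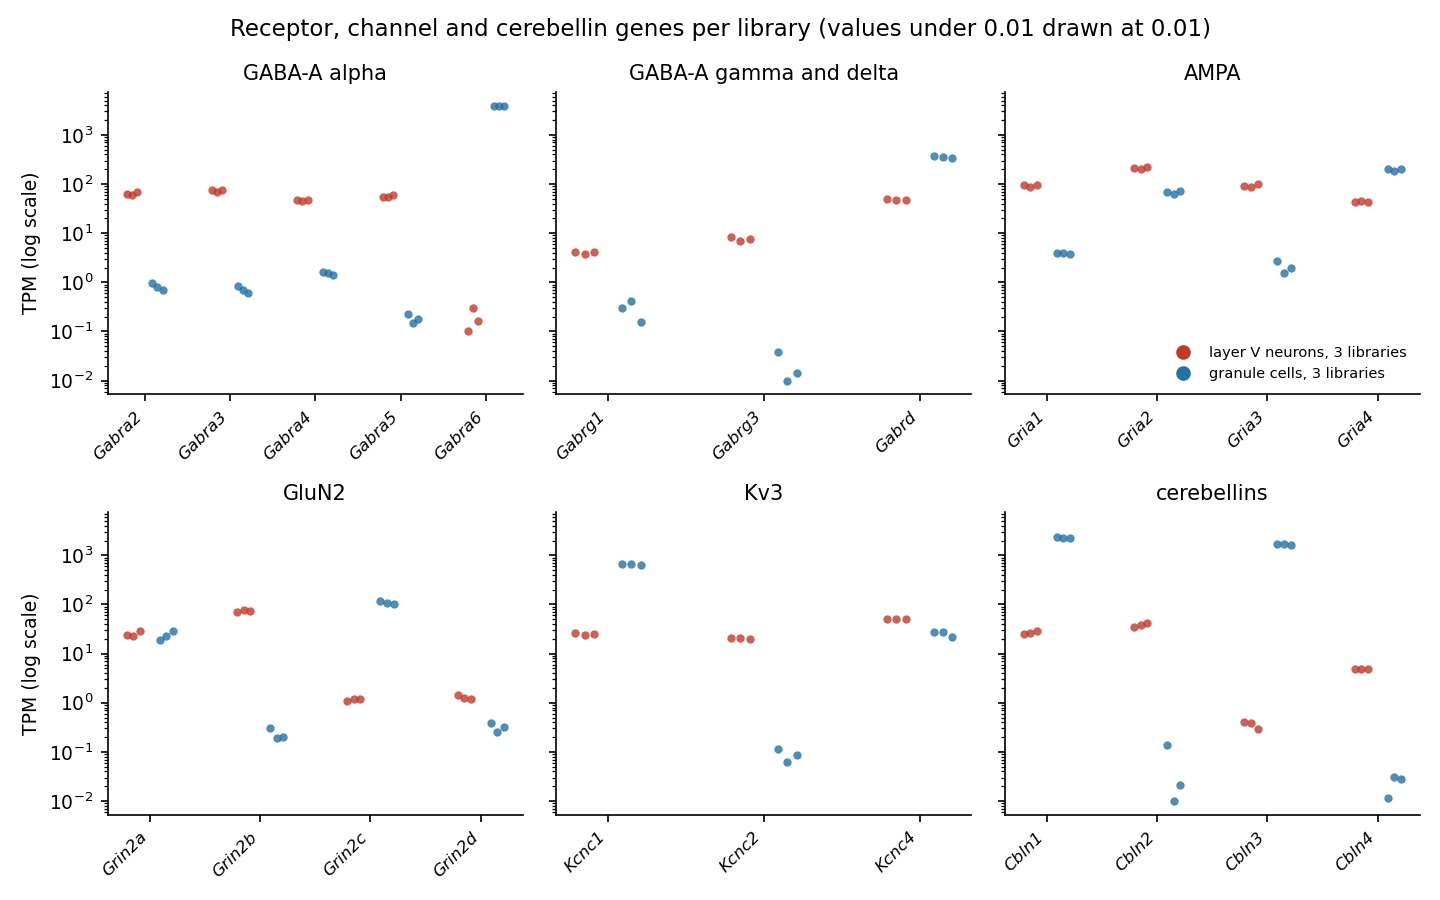
Points are TPM in each of the 3 layer V libraries (red) and 3 granule cell libraries (blue) on a log axis, for GABA-A α, GABA-A γ and δ, AMPA, GluN2, Kv3 and cerebellin genes. Gabra6, Gabrd, Gria4, Grin2c, Kcnc1, Cbln1 and Cbln3 lie higher in granule cells, and Gabra2 to Gabra5, Grin2b and Cbln2 in layer V neurons, with no overlap between groups.

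Secreted and membrane organisers of synapses differed member by member. Of 17 cerebellin, neurexin, neuroligin and LRRTM genes tested, 8 (47.1%, against 29.2%) were higher in layer V neurons and 5 (29.4%, against 20.3%) in granule cells. The cerebellins, which bridge neurexins to δ receptors, summed to 69.7 ± 4.68 TPM in layer V neurons and 3948 ± 99.6 in granule cells. Cbln1 and Cbln3 made up 57.8% ± 0.680 and 42.2% ± 0.681 of the granule cell sum. The layer V sum was mainly Cbln2 (54.0% ± 1.11) and Cbln1 (38.5% ± 0.477). The C1q-like genes, which are related to cerebellins, went the other way, with 206 ± 2.69 TPM in layer V neurons and 0.329 ± 0.149 in granule cells. C1ql3 alone reached 191 ± 4.72 TPM in layer V neurons, with 266, 267 and 251 CPM against 0.0787, 0.173 and 0.136. Among neurexins, Nrxn3 was higher in granule cells at a log2 fold of -1.20, while Nrxn2 (-0.53) was not called. Lrrtm1 and Lrrtm4 were higher in layer V neurons and Lrrtm2 and Lrrtm3 in granule cells, with log2 folds from -1.83 for Lrrtm3 to 4.96 for Lrrtm4.

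Potassium channels were the largest set of ion channels, and 41 of 72 tested (56.9%, against 29.2% of all genes) were higher in layer V neurons. In granule cells 14 (19.4%, against 20.3%) were higher, and the median log2 fold was 1.64. The silent subunits Kcnf1, Kcng1 and Kcnv1, which form no channel alone and modify Kv2 or related channels, were among the largest differences in the whole comparison. Kcnf1 stood at 289, 279 and 299.6 CPM in layer V neurons and 0.0472, 0 and 0.0390 in granule cells. Kcnj4, an inward rectifier, stood at 176, 175 and 162 CPM against 0.0629, 0.151 and 0. On the granule cell side were channels of fast currents. Kv3 channels, which repolarise spikes quickly, summed to 1306 ± 41.5 TPM in granule cells and 145 ± 2.88 in layer V neurons, and Kcnc1 made up 50.4% ± 1.16 of the granule cell sum. Kcnc1 stood at 1349, 1400.5 and 1363 CPM against 87.8, 82.1 and 82.4. Kcnc2 and Kcnc4 had the opposite direction, with Kcnc2 at 20.6 ± 0.527 TPM in layer V neurons and 0.0881 ± 0.0260 in granule cells and Kcnc4 at a log2 fold of 1.14. Kv4 channels, which carry A-type current, summed to 366 ± 9.91 TPM in granule cells and 59.1 ± 2.18 in layer V neurons, with Kcnd2 at 92.2% ± 0.604 of the first. The leak channels of the K2P family summed to 567 ± 23.3 and 178 ± 1.38 TPM. Kcnk1 made up 53.9% ± 0.748 in granule cells and Kcnk2 35.3% ± 1.57 in layer V neurons, and Kcnk10 and Kcnk3 were higher in granule cells at log2 folds of -3.95 and -3.52. Within Kv1, Kcna1 made up 47.1% ± 1.98 in granule cells and 8.99% ± 0.431 in layer V neurons, while Kcna6 made up 0.941% ± 0.0588 and 34.3% ± 0.600.

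Of 15 sodium channel genes tested, 7 (46.7%, against 29.2%) were higher in layer V neurons and 5 (33.3%, against 20.3%) in granule cells. The pore-forming subunits summed to 178 ± 3.76 TPM in layer V neurons and 438 ± 22.2 in granule cells. Scn2a was the largest in both, at 48.8% ± 0.335 and 68.8% ± 0.219, and was higher in granule cells with 904, 873 and 950.1 CPM against 332, 342 and 336. Scn8a, the main channel of the mature axon initial segment, made up 32.9% ± 0.970 in layer V neurons and 15.5% ± 0.465 in granule cells and was not called, at a log2 fold of 0.02 ± 0.04. The accessory subunits Scn3b and Scn4b were higher in layer V neurons, at 175, 157 and 164 CPM against 4.50, 3.76 and 4.03 for Scn4b. Scn2b was higher in granule cells at a log2 fold of -1.38.

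Of 28 calcium and HCN channel genes tested, 15 (53.6%, against 29.2%) were higher in layer V neurons and 5 (17.9%, against 20.3%) in granule cells. The median log2 fold was 1.31. Cacna1a, the P/Q-type channel of transmitter release, was higher in granule cells, with 577, 578 and 609 CPM against 129.9, 131 and 123.1, and made up 53.2% ± 0.616 and 37.8% ± 1.57 of the pore-forming sum. Cacna1h, a low-threshold T-type channel, was higher in layer V neurons at 46.1, 47.7 and 49.0 CPM against 0.315, 0.129 and 0.273. Of the accessory γ subunits and relatives that traffic AMPA receptors, Cacng3 stood at 167, 164 and 168 CPM against 0.142, 0.129 and 0.117 and Cacng8 had a log2 fold of 3.95, while Cacng2 (stargazin) was not called at 0.03 ± 0.04. The β subunit Cacnb4 was higher in granule cells and Cacnb1, Cacnb2 and Cacnb3 in layer V neurons. HCN channels carry the hyperpolarisation-activated current that is strong in layer V dendrites. They summed to 99.9 ± 1.38 TPM in layer V neurons and 58.2 ± 1.54 in granule cells, and Hcn2 was the largest in both and was called higher in layer V neurons at a log2 fold of 1.13.

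Calcium signalling genes were called at shares near those of all genes, and some abundant members differed widely. Of 39 genes tested, 13 (33.3%, against 29.2%) were higher in layer V neurons, 9 (23.1%, against 20.3%) in granule cells and 17 were not called. Camk2a, the α subunit of the spine kinase CaMKII, stood at 4255, 4274 and 4244 CPM in layer V neurons and 2.64, 2.22 and 2.44 in granule cells. It made up 65.0% ± 0.592 of CaMKII in layer V neurons and 0.0754% ± 0.00546 in granule cells, where Camk2b made up 62.2% ± 0.585 and Camk2d 24.9% ± 0.845. The CaMKII sum was 2188 ± 48.8 TPM and 1247 ± 18.3. Camk4, the nuclear kinase that is abundant in granule cells, was at 464, 455 and 554 CPM in granule cells and 54.9, 53.8 and 54.0 in layer V neurons. Calb2 encodes calretinin, the calcium buffer of granule cells, and stood at 1228, 1269.7 and 1249 CPM against 9.99, 9.30 and 18.6. Hpca encodes the calcium sensor hippocalcin and stood at 729.9, 751 and 683 CPM in layer V neurons against 5.73, 5.65 and 4.71. The calmodulin gene Calm2 was not called, at a log2 fold of 0.64. Among plasma membrane calcium pumps Atp2b3 made up 27.5% ± 0.246 in granule cells and 3.32% ± 0.182 in layer V neurons.

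Receptors for the neuromodulators serotonin, dopamine, noradrenaline, acetylcholine and histamine were higher in layer V neurons almost throughout. Of 37 tested, 29 (78.4%, against 29.2% of all genes) were higher in layer V neurons and 4 (10.8%, against 20.3%) in granule cells. The median log2 fold was 5.43. Among serotonin receptors, Htr2a stood at 31.9, 38.3 and 33.9 CPM in layer V neurons and 0.0157, 0 and 0.117 in granule cells. Htr1a stood at 22.2, 23.9 and 25.0 against 0.0157, 0 and 0.0779. Htr1f stood at 1.40, 1.81 and 1.57 and had no counts in granule cells, at least 86.4-fold higher. Levels were modest even where the fold was large. Per length, the highest of the list in layer V neurons were Hrh3, the histamine autoreceptor and heteroreceptor, at 108 ± 2.73 TPM and Chrm1 at 87.5 ± 2.65, and Htr2a was at 13.5 ± 1.03. The α1 adrenergic receptors Adra1d and Adra1b reached 44.0 ± 0.917 and 27.1 ± 1.68 TPM in layer V neurons and 0.0733 ± 0.0501 and 0.0882 ± 0.0218 in granule cells. The nicotinic subunits Chrna3, Chrnb2 and Chrnb4 were among the 4 members that were higher in granule cells. Chrnb2 stood at 169, 166 and 171 CPM against 64.9, 63.0 and 66.0, while its partner Chrna4 had the opposite direction, at 27.0 ± 0.346 TPM in layer V neurons and 0.148 ± 0.0275 in granule cells.

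Neuropeptide genes were mostly higher in layer V neurons. Of 28 precursors, granins and processing enzymes tested, 21 (75%, against 29.2%) were higher in layer V neurons. In granule cells 2 (7.14%, against 20.3%) were higher. The median log2 fold was 5.37, or 5.24 with genes at 0 set to their bound. Cck stood at 746, 756 and 682 CPM in layer V neurons and 0.299, 0.302 and 0.429 in granule cells. Trh stood at 32.9, 31.2 and 37.5 CPM, Grp at 11.3, 9.46 and 9.69 and Cartpt at 3.02, 3.48 and 2.89 in layer V neurons, and all 3 had no counts in granule cells, which made them at least 1811-fold, at least 543-fold and at least 169-fold higher. The granins Chgb (1946, 2058 and 2032 CPM against 619, 609 and 577) and Scg3 were the members that were higher in granule cells, and the Scg3 call was lost with upper-quartile scaling. The processing enzyme gene Cpe was not called, at 1279, 1243 and 1252 CPM and 1229, 1273 and 1252.

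Interneurons are a known source of several of these peptides, so their level in the interneuron libraries of the series is set beside them. Those libraries came from hippocampus and batch 2, and the layer V libraries from cortex and batch 1, so that region and batch differ in each percentage. Trh, Grp and Adcyap1 were higher in layer V libraries than in interneuron libraries, at 1959%, 1038% and 10395% of the interneuron TPM. Cck reached 200% (199.76) and Vgf 101.5%. Sst, Npy, Tac1 and Crh lay at 4.82%, 4.39%, 4.49% and 7.85%, and Pvalb at 6.64%. Nts, Pdyn, Cartpt and Penk lay at 63.3%, 47.8%, 33.6% and 29.5%. Vip and Pnoc lay at 1.01% and 0.889%, within the range of Gad1 (0.733%), Gad2 (1.17%) and Slc32a1 (1.10%). Tac2 lay above that range, at 2.27%. The part of interneuron RNA in the layer V levels of the genes compared here was not tested.

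Most genes of postsynaptic scaffolds and spines were higher in layer V neurons, while genes of the release machinery were called at shares nearer those of all genes. Of 33 postsynaptic genes tested, 19 (57.6%, against 29.2%) were higher in layer V neurons and 2 (6.06%, against 20.3%) in granule cells. The median log2 fold was 1.68. Beside Ddn, Dlgap2, a partner of PSD-95, stood at 60.3, 58.2 and 58.8 CPM in layer V neurons and 0.0944, 0.0432 and 0.0974 in granule cells. Kalrn, an exchange factor for Rac in spines, stood at 474, 498 and 459 against 3.48, 3.496 and 4.07, and Camk2n1, an inhibitor of CaMKII, at 2674, 2365 and 2482 against 102, 106 and 99.3. The kainate receptor auxiliary subunits were exchanged, with Neto1 higher in layer V neurons (8.96) and Neto2 in granule cells (-2.73, log2 folds). Homer proteins tie metabotropic receptors to the scaffold, and Homer1 and Homer2 were higher in layer V neurons while Homer3 was higher in granule cells.

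Of 50 presynaptic genes tested, 11 (22%, against 29.2%) were higher in layer V neurons, 12 (24%, against 20.3%) in granule cells and 27 were not called. The most abundant members, Snap25 and Cplx2, were not called, with log2 folds of -0.80 ± 0.03 and -0.92 ± 0.03. Both cell types used the vesicular glutamate transporter Slc17a7 almost exclusively, at 99.0% ± 0.0256 and 99.8% ± 0.0231 of the 3 transporters. Differences lay in paralogues. Syntaxin 1A (Stx1a) stood at 589, 591 and 541 CPM in layer V neurons and 2.97, 2.68 and 2.79 in granule cells. The priming factor Unc13a made up 83.5% ± 1.57 of the Munc13 sum in layer V neurons, while Unc13c made up 49.6% ± 2.76 in granule cells. Unc13c stood at 297, 278 and 292 CPM in granule cells and 9.88, 9.34 and 8.16 in layer V neurons. Among the synaptotagmins, some of which are calcium sensors of release, Syt1 was the largest in both cell types, at 34.2% ± 0.230 and 26.2% ± 0.699. Syt2 made up 19.8% ± 0.657 in granule cells and 1.05% ± 0.0461 in layer V neurons, and Syt5 0.452% ± 0.0231 and 12.5% ± 0.173. Doc2a, Rab3b and Syt17 were higher in layer V neurons, with log2 folds of 7.89, 7.46 and 9.46.

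**Figure D4:**
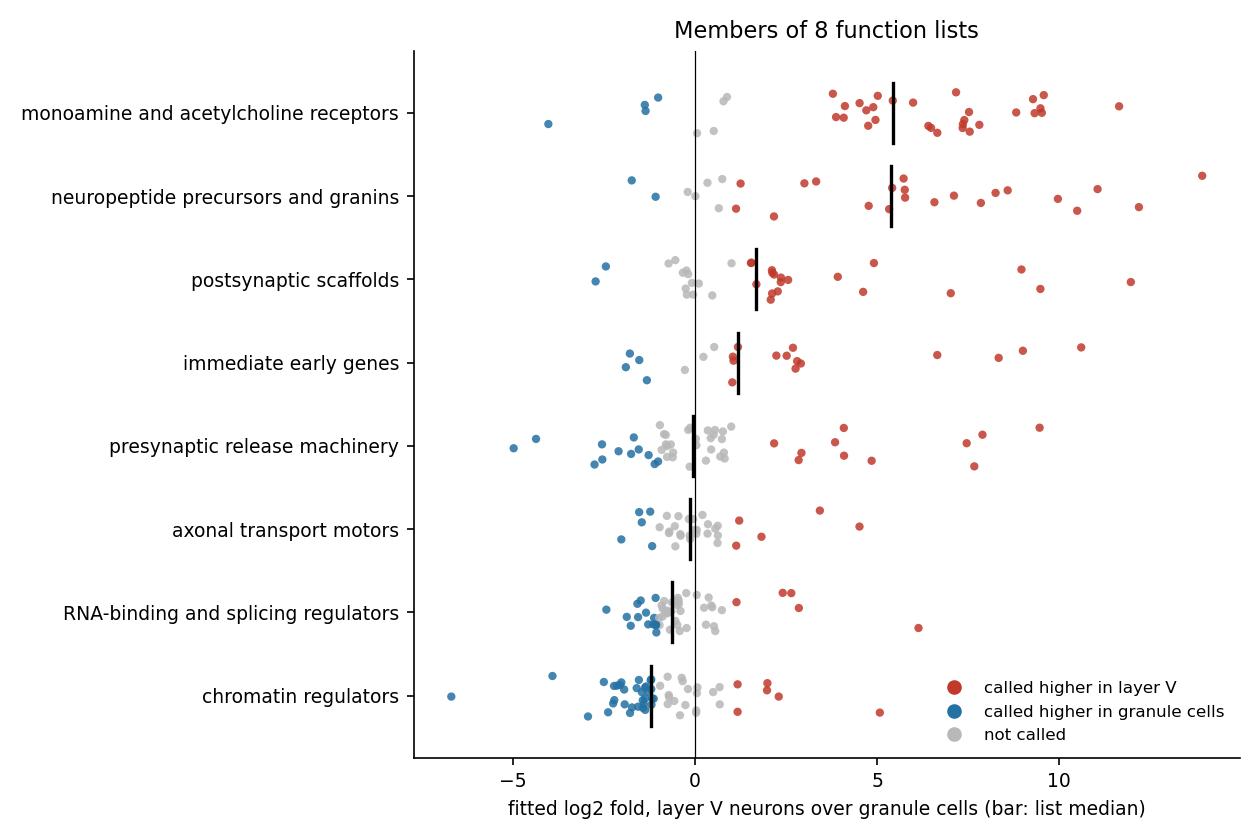
Each point is 1 tested gene of 8 function lists, placed by its fitted log2 fold (layer V neurons over granule cells), with genes called higher in layer V neurons in red, genes called higher in granule cells in blue, genes not called in grey and the list median as a black bar. Monoamine and acetylcholine receptors and neuropeptides have medians of 5.43 and 5.37, postsynaptic scaffolds 1.68 and chromatin regulators -1.21.

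Immediate early genes, the first transcripts induced by activity, were mostly higher in layer V neurons. Of 21 tested, 14 (66.7%, against 29.2%) were higher in layer V neurons and 4 (19.0%, against 20.3%) in granule cells. The median log2 fold was 1.18. Nptx2, a secreted AMPA receptor clustering protein, stood at 109, 107 and 112 CPM against 0.0629, 0.0432 and 0.0974, and Egr3 at 239, 242 and 286 against 0.346, 0.626 and 0.565. Fosb stood at 50.4, 41.9 and 40.8 against 0.504, 0.453 and 0.351, while the abundant Egr1 differed less, at 550.2, 450.0 and 364 and 82.7, 104.7 and 104. The members that were higher in granule cells were Jun (-1.53), Ier2 (-1.90), Btg2 (-1.79) and Dusp1 (-1.33, log2 folds). Jund, the most abundant member, was not called.

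Axon guidance genes differed in both directions. Of 75 ligands and receptors tested, 34 (45.3%, against 29.2% of all genes) were higher in layer V neurons and 23 (30.7%, against 20.3%) in granule cells. The repellent ligands Slit1 and Slit2 were higher in layer V neurons, with 44.7, 41.5 and 44.4 CPM against 0.142, 0.0432 and 0.0195 for Slit1 and a log2 fold of 8.19 for Slit2. Of their receptors, Robo2 was higher in layer V neurons at 50.2 ± 2.35 TPM against 1.90 ± 0.437, and Robo1 was not called. Ephb6 and Efna3, a receptor and a ligand of the ephrin system, stood at 177, 172 and 153 CPM against 0.472, 0.0863 and 0.273 and at 76.7, 74.6 and 76.8 against 0.378, 0.237 and 0.370. On the granule cell side, the netrin receptor Unc5b stood at 151, 155 and 156 CPM against 5.07, 4.62 and 4.83, and Ntn4, a netrin, at 62.8, 68.8 and 67.0 against 3.46, 3.94 and 3.28. Plxnb2, Sema5a and Cntn2 (TAG-1, an axonal adhesion molecule) were also higher in granule cells, at log2 folds of -3.43, -3.19 and -3.09. In the list of trophic factors and their receptors, 11 of 20 (55%, against 29.2%) were higher in layer V neurons and 5 (25%, against 20.3%) in granule cells. With limma on log2(TPM + 1) the first count was 7. Gfra2, a receptor for neurturin, stood at 195, 195 and 189 CPM in layer V neurons against 0.566, 0.669 and 0.604. Ntf3 (neurotrophin 3) and its receptor gene Ntrk3 were both higher in granule cells, at 17.1, 15.6 and 16.9 CPM against 1.98, 1.48 and 2.24 for Ntf3 and a log2 fold of -1.62 for Ntrk3. The BDNF receptor gene Ntrk2 was not called.

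Genes of the axonal cytoskeleton were called at shares near those of all genes and differed by component. Of 35 genes tested, 11 (31.4%, against 29.2%) were higher in layer V neurons, 9 (25.7%, against 20.3%) in granule cells and 15 were not called. Neurofilament subunits, which widen the calibre of large axons, summed to 1341 ± 50.8 TPM in layer V neurons and 631 ± 20.97 in granule cells. Nefl and Nefm made up 43.0% ± 0.386 and 34.3% ± 0.560 of the layer V sum, and the internexin gene Ina made up 70.0% ± 0.826 of the granule cell sum. Nefh, the heavy subunit, stood at 136, 133 and 146 CPM in layer V neurons and 11.2, 8.74 and 8.81 in granule cells. Spectrins and ankyrins of the membrane skeleton were on the other side, with Sptb at 586, 503 and 631 CPM in granule cells and 44.6, 44.5 and 46.4 in layer V neurons. Ank1 stood at 1126, 1042 and 1089 against 36.2, 35.7 and 37.6, and Sptan1 had a log2 fold of -2.08. The β-tubulins summed to nearly the same level, 4604 ± 109 and 4593 ± 222 TPM, but Tubb4a made up 24.3% ± 0.158 in layer V neurons and 64.1% ± 0.425 in granule cells and Tubb2a 31.0% ± 0.350 and 7.76% ± 0.243. Map1b, the most abundant microtubule-associated gene of the list by CPM, was not called at -0.16 ± 0.03.

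Of 33 motor protein genes tested, 5 were higher in layer V neurons, 5 in granule cells and 23 were not called. The share higher in layer V neurons was 15.2% against 29.2% of all genes, and in granule cells 15.2% against 20.3%. Kif17, a dendritic kinesin that carries NMDA receptors, stood at 27.2, 28.7 and 27.9 CPM in layer V neurons and 1.16, 1.17 and 1.34 in granule cells, and Kif21b at 62.0, 53.8 and 54.5 and 5.19, 5.14 and 5.53. The axonal kinesin Kif5a stood at 1179, 1114 and 1070.2 CPM and 1099, 1057 and 1105 and was not called. Dync1h1, the dynein heavy chain, and Kif1b were higher in granule cells, at log2 folds of -2.03 and -1.54. With limma on log2 TPM 3 motors were called higher in layer V neurons.

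Transcript length moved with the direction of the difference over all genes. The median transcript length was 2227 bases for genes higher in layer V neurons and 3286 for those higher in granule cells, against 2514 over all tested genes. When the genes were cut into 10 equal groups by length, the group with the shortest transcripts had a median length of 709.9 bases, and its median log2 fold was 0.65, with 39.0% higher in layer V neurons and 12.3% in granule cells. In the group with the longest, of median length 6683 bases, it was -0.56, with 22.3% and 37.0%. Across genes the Spearman correlation of length with log2 fold was -0.209, a description over genes that share the same 6 libraries. A fold relative to the median of genes in the same length group was therefore set beside the lists of unusually short or long genes. This alternative was chosen after the data were seen, and what set the trend was not tested.

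**Figure D5:**
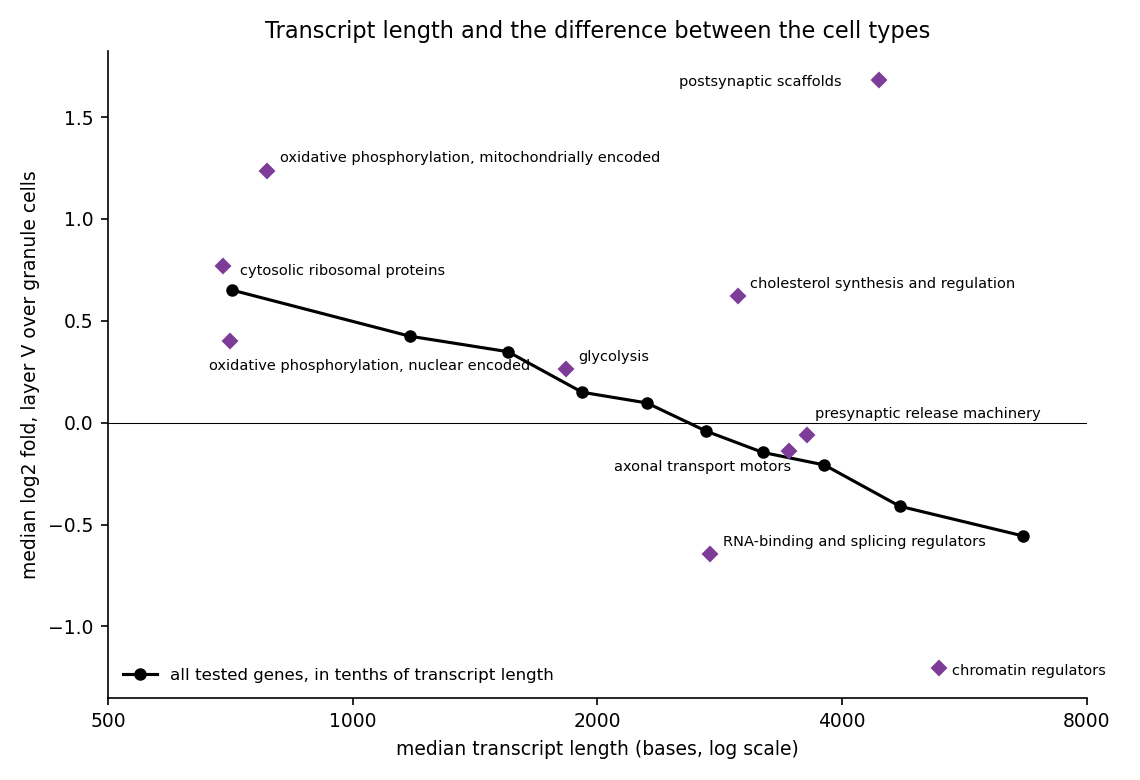
The black line joins the median log2 fold (layer V neurons over granule cells) of all tested genes in 10 equal groups by transcript length, plotted at the median length of each group on a log axis, and falls from 0.65 to -0.56. Purple diamonds are 10 function lists at their median length and median log2 fold, with ribosomal and nuclear-encoded oxidative phosphorylation genes near the line and postsynaptic scaffolds and chromatin regulators away from it.

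Ribosomal protein genes, all short, lay on the layer V side. Of 83 tested, 21 (25.3%, against 29.2%) were called higher in layer V neurons and none (against 20.3%) in granule cells, with a median log2 fold of 0.77. Without the fold limit, 75 (against 45.5% of all genes) were higher in layer V neurons and 6 (against 41.2%) in granule cells at an adjusted p of at most 0.05 in edgeR. Relative to genes of the same length only 2 were called, and with limma on log2 TPM 10. Rpl41 stood at 151, 165 and 157 CPM in layer V neurons and 46.0, 45.7 and 45.4 in granule cells, and Rplp1 at 141, 159 and 149 and 53.5, 51.5 and 49.4. The abundant Rpl3 and Rpl4 were not called, at log2 folds of 0.60 and 0.50.

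Of 13 mitochondrially encoded respiratory chain genes, 12 (92.3%, against 29.2%) were higher in layer V libraries and none (against 20.3%) in granule cell libraries. The median log2 fold was 1.24. The mRNAs of these genes are translated by mitochondrial ribosomes, which hold no Rpl22, so these levels do not measure binding to tagged ribosomes. The summed levels of astrocyte, microglia, vascular and oligodendrocyte markers given above were also higher in layer V libraries, and their part in this difference was not tested. Relative to genes of the same length 3 were called, and with a test against a fold of 2, 7. mt-Atp6 stood at 118, 143 and 149 CPM and 41.1, 34.6 and 42.6, and mt-Nd5, the one not called, had a log2 fold of 0.96. Of 79 nuclear-encoded genes only 4 (5.06%, against 29.2%) were called higher in layer V neurons and none (against 20.3%) in granule cells. The median was 0.40. Those 4 calls (Uqcr10, Uqcr11, Atp5md and Atp5k) had log2 folds between 1.00 and 1.04, and none was called relative to genes of the same length. The Uqcr10 call was lost without granule cell replicate 2, at 0.975, and the Atp5k call without granule cell replicates 1 or 3 or layer V replicates 2 or 3, at 0.972, 0.966, 0.986 and 0.965. Glycolysis genes were close to equal. Of 17 tested, Pfkl and Ldha (11.8%, against 29.2%) were higher in layer V neurons and Aldoc (5.88%, against 20.3%) in granule cells. The most abundant, Gapdh and Aldoa, had log2 folds of 0.38 and 0.26.

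Of 25 cholesterol genes tested, 8 (32%, against 29.2%) were higher in layer V neurons and 3 (12%, against 20.3%) in granule cells. Cyp46a1, the neuronal enzyme that turns cholesterol into 24-hydroxycholesterol for export, stood at 246, 241 and 241 CPM in layer V neurons and 14.8, 12.3 and 12.2 in granule cells. The synthesis genes Msmo1 and Hmgcs1 were also higher in layer V neurons, at log2 folds of 1.99 and 1.63. The cholesterol efflux transporter gene Abca1 was on the other side, at -3.43.

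Chromatin regulators lay mainly on the granule cell side. Of 57 tested, 33 (57.9%, against 20.3%) were higher in granule cells and 6 (10.5%, against 29.2%) in layer V neurons. The median log2 fold was -1.21. These genes are long, and relative to genes of the same length 23 were called higher in granule cells. Chd7, a remodeller of the granule lineage, stood at 282, 317 and 338 CPM in granule cells and 3.12, 2.91 and 3.01 in layer V neurons. The enzymes of DNA methylation and its removal shared that direction, with Dnmt3a at 389, 387 and 418 CPM against 52.9, 53.2 and 49.1 and Tet1 at 63.5, 63.7 and 71.3 against 4.60, 4.56 and 3.95. Kmt2c, a histone H3 lysine methyltransferase, had a log2 fold of -2.51. Chd5 and Chd3, remodellers of the NuRD type, and Hmgb3 were higher in layer V neurons, with Chd5 at 397, 390.0 and 390.2 CPM against 13.3, 10.4 and 11.05. Among 52 RNA-binding and splicing regulators, 14 (26.9%, against 20.3%) were higher in granule cells and 5 (9.62%, against 29.2%) in layer V neurons. The median was -0.64. With upper-quartile scaling the first count was 9. Khdrbs3 (T-STAR), a regulator of neurexin splicing, was the largest difference of that list, at 236, 253 and 246 CPM in layer V neurons and 3.98, 3.43 and 2.98 in granule cells. The CELF genes Celf3, Celf5 and Celf6 were higher in layer V neurons, and Elavl2 (HuB) and Nova1 in granule cells, at log2 folds of -2.44 and -1.77.

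The length alternative also lowered some granule cell counts given above for long genes. Sodium channels went from 5 to 2, calcium and HCN channels from 5 to 2, motors from 5 to 1 and cerebellins, neurexins and their partners from 5 to 3. The counts of regional factors (18 and 3, 2 and 18), neuromodulator receptors (31 and 3), neuropeptides (21 and 2), postsynaptic genes (20 and 2), axon guidance genes (35 and 20), layer V and granule cells respectively, moved by at most 3.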

How the data were processed

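Polyadenylated RNA from tagged ribosomes was sequenced as stranded paired reads of 100 bases in the 6 batch 1 libraries analysed here. The authors trimmed adapters with cutadapt 3.5 and quantified reads with kallisto 0.46.2 on GENCODE M24 transcripts (GRCm38), and deposited estimated counts and TPM per transcript for each library. Whether strand was used in quantification is not given in the sources used here, so reads of a gene and its antisense partner may not be told apart, and near-identical genes share reads by estimate.

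Estimated counts were summed over the transcripts of each gene (55385 genes), rounded to whole numbers, and tested with the quasi-likelihood test of edgeR 4.0.16 (R 4.3.3) after filterByExpr and TMM normalization, with the 2 groups alone in the fit. CPM values are TMM-scaled, fold changes are layer V neurons over granule cells with SE, and p-values were adjusted by Benjamini-Hochberg over all 17182 genes tested. TPM was summed per gene to set levels of different genes beside each other, and transcript length is the TPM-weighted mean over a gene’s transcripts. A gene at 0 in a group was given a bound at 3 counts over the group, and one with 1 to 3 counts a ratio with its exact 95% interval, which covers counting error only. On simulated counts for 16766 genes, 200 of them changed 4-fold, the test recovered 200 and called 2 of the unchanged genes.

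The gene lists (25 functional, with 963 of 967 members found, and 11 of markers), like the choice of the 2 cell types, were made with earlier results of these data known. Named were the 12 protein-coding genes with the largest fold on each side at a mean of at least 50 CPM without overlap, up to 4 called members of each list on each side with its 2 most abundant, all GABA-A, glutamate, sodium, calcium, HCN and cerebellin genes, markers and relatives of a named gene. Some genes that this rule names are not reported here. Hrh3, Adcyap1, Vgf, Penk, Pdyn and Nts were chosen after their values were seen. Promoter windows were taken from RefSeq (GRCm38.p6) and gene coordinates from GENCODE M21 (GRCm38). The labels give each library a sex but not whether animals were pooled, so p-values measure the spread between these libraries. Alternatives were DESeq2 1.42.0, limma 3.58.1 on log2(TPM + 0.5) and log2(TPM + 1), other filters and scaling, sex or the replicate block as a term, batch 2 libraries, all 6 cell types, a test against the fold, and each library left out.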

Additional observations from a re-analysis of the deposited data

How the results depend on the processing

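The counts of 5011 genes higher in layer V neurons and 3490 in granule cells moved by over 1.5 times only with limma on log2(TPM + 1), which called 2756 higher in layer V neurons, and without the fold limit, where an adjusted p in edgeR called 7822 and 7076. Leaving out each library gave 5063 to 5289 and 3531 to 3615. The share of calls on the layer V side was 58.9%, and 48.9% and 46.5% with limma at pseudocounts of 0.5 and 1. Upper-quartile scaling moved the median of all genes from 0.08 to 0.21 and gave 5376 and 3039 calls. Of 919 tested members of the function lists, 530 were called, 869 without the fold limit and 465 to 539 in the other settings. Deviations from the group mean correlated weakly between same-numbered libraries (0.144, -0.065 and 0.15), and the other pairs lay between -0.226 and 0.123. With the replicate block the calls numbered 4998 and 3490, with 528 in the lists.

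Across 194 called genes chosen by the naming rule and 3293 values under alternatives, none reversed, 3244 kept their call and 49 (17 genes) lost it, 15 of these with limma on log2(TPM + 1) and 11 with log2(TPM + 0.5). Calls lost when a library was left out included those of Atp5k, Uqcr10 and mt-Co1, with log2 folds near the limit. mt-Co1 fell below it without granule cell replicate 2 or layer V replicates 2 or 3. All 194 kept their sign in the batch 2 pair, 1 library against 1 with no test, whose labels repeat replicates of batch 1. Of 1000 list counts under alternatives, 54 moved by over 1.5 times. The medians of the GABA-A, presynaptic, cytoskeleton, sodium channel and calcium signalling lists changed sign with scaling or unit, and no direction is given for them. At the lowest depth of 48481047 estimated counts, 3 counts correspond to well under 1 CPM, so levels listed at 0 are limited by depth.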

Other observations

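The labels give layer V replicate 1 as female in batch 1 and as male in batch 2. Its batch 2 library held 2.13 TPM of Xist and 0.034 to 0.207 TPM of Ddx3y, Uty, Kdm5d and Eif2s3y, and its batch 1 library held 2.45 TPM of Xist. The layer V library labelled male in batch 1 held 0.0063 TPM of Xist and 27.0 TPM of Ddx3y. Uty and Kdm5d, both Y-linked, were called higher in granule cells although the libraries of the groups overlapped, and neither was counted in a function list. Among libraries labelled male in batch 1, Uty stood at 19.5 and 11.7 TPM in granule cells and 3.28 in layer V neurons, and Kdm5d at 26.2 and 18.99 in granule cells and 3.33 in layer V neurons.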
